A study of Mus musculus with 16 samples.

Results

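Aminoacyl-tRNA synthetases are the enzymes that join each amino acid to its tRNA, and 36 of their genes were followed here: 20 that serve the cytosol and 16 that serve the mitochondrion. They were taken from a fixed list of gene names and matched to Ensembl identifiers, 36 of the 55536 genes in the deposited table. All 36 passed the filter on low counts, which kept 15316 genes. The cells were a mouse inner medullary collecting duct cell line carrying a Pkd2 knockout that doxycycline (DOX) switches on. Pkd2 encodes polycystin-2, a channel protein whose loss causes polycystic kidney disease. Cells at passage 4 or passage 7 were kept on permeable filters for 10 days and given DOX at 2 ug/mL for 6 days or no DOX, which made 4 groups of 4 libraries. The titles call all 16 libraries Pkd2KO cells, and the genotype label is wild type for those without DOX and Pkd2KO induced by DOX for the others. No group received DOX without the inducible allele, so DOX itself and the loss of Pkd2 cannot be told apart. Whether the replicates were separate cultures is not stated in the labels. P-values therefore speak only for the spread among these libraries, which may be technical.

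Each synthetase recognises 1 amino acid, and an enzyme of class I or class II fold uses ATP to attach it to the matching tRNA. Most amino acids have 1 gene for the cytosolic enzyme and another, also in the nucleus, for the enzyme that is imported into mitochondria, where the few proteins encoded by mitochondrial DNA are made. Gars and Kars each serve both places, Eprs encodes the glutamate and proline enzymes in a single protein, and Farsa and Farsb encode the subunits of the phenylalanine enzyme. Uncharged tRNA activates the kinase GCN2, which raises translation of the transcription factor ATF4, and many cytosolic synthetase genes are known ATF4 targets.

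The libraries held 9937504 to 17188295 counts. Pkd2 was at 135 to 187 CPM (counts scaled to a common library size, with TMM factors) in the 8 libraries without DOX and at 47.5 to 65.8 CPM in the 8 with it, a log2 fold change of -1.41 at passage 4 and -1.71 at passage 7 (edgeR adjusted p = 8.8e-10 and 4.3e-11). The epithelial markers Krt8, Krt18, Krt19, Cdh1 and Epcam and the collecting duct marker Hoxb7 were present. Of the 14 collecting duct and tubule epithelium markers, 3 had a mean under 1 CPM: Aqp2, the vasopressin-regulated water channel, was at 0 in all libraries, and Aqp3 and Slc14a2 were near 0. Scnn1b and Scnn1g were low, with means of 1.61 and 1.15 CPM. The 14 markers summed to 5334 to 6668 CPM without DOX and 4157 to 5790 CPM with it. Averaged over passages, 7 of the 11 tested were lower with DOX and 1 higher (edgeR adjusted p under 0.05), against 16.6% and 15.7% of all genes. The 5 leukocyte markers summed to 38.9 to 75.1 CPM without DOX and 20.1 to 43.6 CPM with it, with Adgre1 at 0 throughout. Most of this sum was Csf1r and Cd68, with means of 26.3 and 17.2 CPM over all libraries. Ptprc and Cd3e had means of 1.33 and 0.0143 CPM, so the sum does not show that leukocytes were present. RNA of the mitochondrial genome took 1.23% to 1.80% of counts without DOX and 2.00% to 3.00% with it at passage 4, and 1.09% to 2.00% and 1.46% to 2.75% at passage 7. The library with DOX was the higher one in all 8 pairs of the same passage and replicate number. Part of this difference lay in 1 ribosomal RNA gene, mt-Rnr2, at 598 to 1085 CPM without DOX and 2390 to 7303 CPM with it. The part of these shifts in the results on synthetase genes was not tested. In bulk samples, fewer cells of a type and less RNA per cell cannot be told apart.

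With DOX, 15 of the 20 cytosolic genes rose, and 4 of the 16 mitochondrial genes. These counts are for the response averaged over both passages, from the quasi-likelihood test of edgeR, adjusted by Benjamini-Hochberg over all tested genes, with a threshold of 0.05. The cytosolic genes that rose were Aars, Cars, Eprs, Farsb, Gars, Iars, Lars, Mars1, Nars, Rars, Sars, Tars, Vars, Wars and Yars. Dars, Farsa, Hars, Kars and Qars did not pass, with log2 fold changes of -0.13 to -0.00. The mitochondrial genes that rose were Cars2, Iars2, Nars2 and Vars2. The mitochondrial members had lower counts, with a median of 22.9 CPM without DOX against 190 CPM, and often larger standard errors. A gene that did not pass may thus still have changed: Mars1 passed at 0.11 ± 0.035, and Ears2 at 0.13 ± 0.085 did not. In this fit, which had no replicate block, no member of either group was called lower. With the block Farsa and Hars were (adjusted p = 0.037 and 0.026). Across all genes tested, 15.7% were called higher and 16.6% lower. The median log2 fold change was 0.31 for the cytosolic members, 0.13 for the mitochondrial members and -0.00 for all genes tested. Each of these 19 calls also held when any 1 of the 16 libraries was left out.

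**Figure D1:**
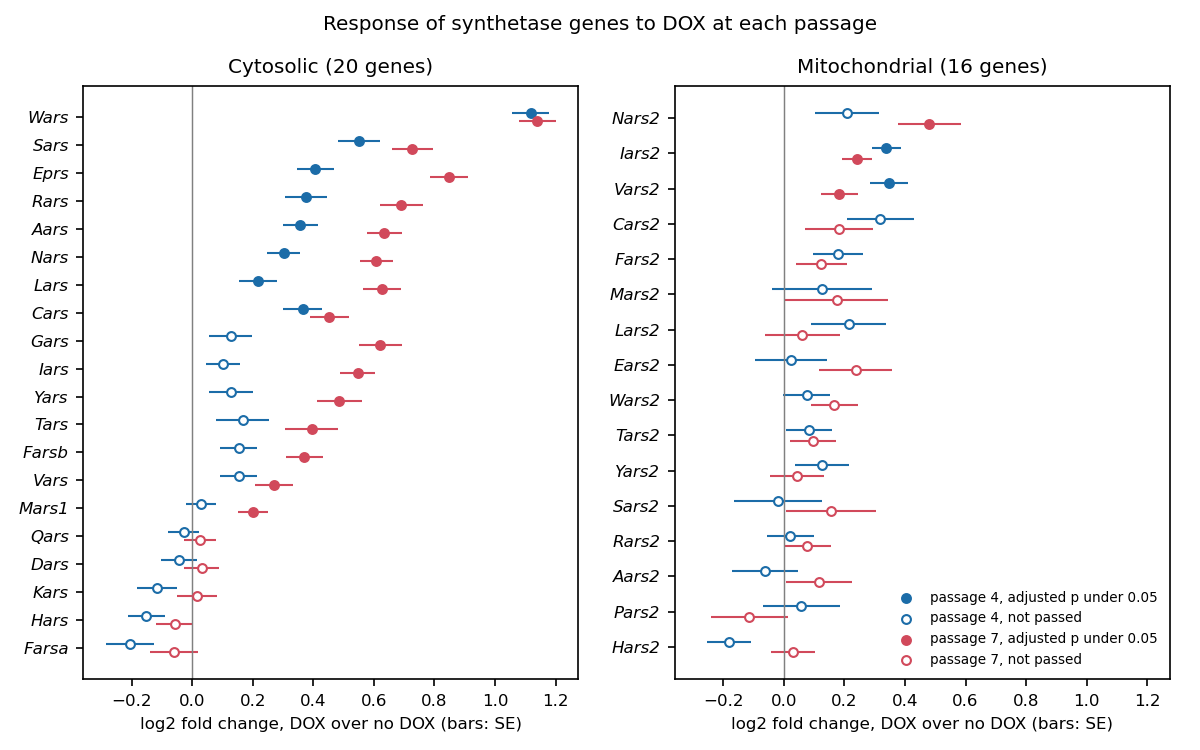
Log2 fold change with DOX for each of the 36 synthetase genes at passage 4 and passage 7, as the estimate with its standard error, filled where the adjusted p was under 0.05. At passage 7, 15 cytosolic genes are filled, and all 20 cytosolic estimates lie to the right of those at passage 4, while the mitochondrial genes stay between -0.18 and 0.48 at both passages.

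Wars, the tryptophan enzyme, had the largest response of all 36 genes. It lies at chr12:108860030-108894174 on the minus strand (GRCm38). Wars read 272, 274, 255 and 245 CPM at passage 4 without DOX, 579, 572, 558 and 563 with it, 255, 268, 229 and 216 at passage 7 without DOX and 533, 515, 564 and 523 with it. Every library with DOX was above every library without it by a wide margin, and both passages reached a like level. The log2 fold change was 1.12 ± 0.061 at passage 4 (SE, n = 4 per group, edgeR adjusted p = 8.1e-10) and 1.14 ± 0.061 at passage 7 (adjusted p = 3.2e-10), or 2.19-fold on average. Its mitochondrial partner Wars2 at passage 4 measured 20.9, 22.7, 18.9 and 19.8 CPM without and 23.5, 20.8, 20.9 and 21.4 CPM with DOX, and at passage 7 21.4, 19.03, 19.7 and 21.5 CPM without and 21.9, 23.7, 23.2 and 22.8 CPM with it. These ranges overlapped at passage 4 and were apart by little at passage 7, and the averaged change of 0.12 ± 0.055 did not pass (edgeR adjusted p = 0.1).

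Sars, the serine enzyme, at chr3:108424865-108445209, and Eprs, at chr1:185363044-185428360, came next. Sars read 316, 306, 335 and 334 CPM at passage 4 without DOX, 442, 407, 534 and 509.5 with it, 337, 348, 359 and 353 at passage 7 without DOX and 572, 547, 605 and 589 with it. Its libraries with DOX lay above all those without at both passages, and at passage 4 replicates 3 and 4 with DOX stood higher than replicates 1 and 2. The averaged log2 fold change of Sars was 0.64 ± 0.049 (edgeR adjusted p = 1.1e-08). Sars2, the mitochondrial serine enzyme, stood at 10.5, 10.6, 13.8 and 14.7 CPM in the passage 4 libraries without DOX and at 11.9, 10.04, 14.1 and 13.2 CPM in those with it, against 12.4, 10.03, 10.8 and 10.6 CPM and 9.06, 12.2, 14.3 and 13.1 CPM at passage 7, with broad overlap between the groups and an averaged change of 0.07 ± 0.10 (edgeR adjusted p = 0.67). Eprs at passage 4 measured 285, 271, 253 and 256 CPM without and 337, 341, 364 and 369 CPM with DOX, and at passage 7 279, 270.3, 240.1 and 242 CPM without and 473, 502, 429 and 455 CPM with it. All DOX libraries of Eprs were above those without at each passage, and passage 7 reached the higher level, with log2 fold changes of 0.41 ± 0.062 and 0.85 ± 0.063.

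Eprs has 2 mitochondrial partners, since glutamate and proline have separate enzymes there. Ears2 stood at 15.7, 17.2, 23.3 and 18.2 CPM in the passage 4 libraries without DOX and at 17.6, 16.2, 20.7 and 21.5 CPM in those with it, against 17.6, 14.5, 17.4 and 16.3 CPM and 17.9, 18.4, 21.1 and 20.03 CPM at passage 7, and its groups overlapped at passage 4 and lay just apart at passage 7. Pars2 read 9.77, 12.2, 11.4 and 8.58 CPM at passage 4 without DOX, 11.2, 12.2, 10.99 and 9.24 with it, 10.6, 12.8, 11.5 and 9.62 at passage 7 without DOX and 11.4, 10.5, 10.3 and 9.13 with it, with overlap at both passages and no clear order. The averaged log2 fold changes were 0.13 ± 0.085 for Ears2 and -0.03 ± 0.089 for Pars2, and neither passed (edgeR adjusted p = 0.27 and 0.85).

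Rars, Aars and Nars, for arginine, alanine and asparagine, formed the next step. Rars at passage 4 measured 221, 220.4, 218 and 226 CPM without and 269, 246, 323 and 312 CPM with DOX, and at passage 7 201, 202, 219.9 and 217 CPM without and 329, 319, 353 and 355 CPM with it. Aars, at chr8:111033144-111057664, read 384, 385, 419 and 423 CPM at passage 4 without DOX, 489, 463, 551 and 560.4 with it, 395, 425, 409 and 412 at passage 7 without DOX and 637, 640.2, 642 and 628 with it. Nars stood at 442, 448, 453 and 459 CPM in the passage 4 libraries without DOX and at 526, 503, 601 and 592 CPM in those with it, against 393, 408, 427 and 405 CPM and 613, 598, 642 and 636 CPM at passage 7. In all 3 genes every library with DOX exceeded every library of the same passage without it, and the DOX libraries of passage 7 were mostly the higher ones. Averaged log2 fold changes were 0.53 ± 0.050, 0.50 ± 0.041 and 0.45 ± 0.039 (edgeR adjusted p = 1.4e-07, 3.4e-08 and 4.7e-08).

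Their mitochondrial partners differed among themselves. Rars2 read 27.00, 29.8, 28.1 and 24.5 CPM at passage 4 without DOX, 27.96, 28.6, 24.6 and 29.7 with it, 24.7, 25.3, 22.9 and 24.4 at passage 7 without DOX and 23.8, 26.04, 26.3 and 26.3 with it, and Aars2 at passage 4 measured 23.1, 22.1, 26.3 and 28.7 CPM without and 21.2, 22.9, 25.5 and 26.6 CPM with DOX, and at passage 7 25.4, 20.7, 23.1 and 24.9 CPM without and 21.6, 23.9, 26.9 and 29.3 CPM with it. Neither showed a separation of DOX libraries, and the averaged changes were 0.05 ± 0.055 and 0.03 ± 0.077 (edgeR adjusted p = 0.54 and 0.82). Nars2 stood at 9.86, 10.3, 9.64 and 9.76 CPM in the passage 4 libraries without DOX and at 10.1, 9.87, 13.5 and 12.5 CPM in those with it, against 9.52, 9.79, 10.5 and 11.2 CPM and 14.7, 14.01, 13.5 and 14.96 CPM at passage 7. Its DOX libraries overlapped those without at passage 4, where replicates 1 and 2 stayed at the level without DOX, and lay above them at passage 7. Nars2 rose by 0.34 ± 0.075 on average (edgeR adjusted p = 0.0015), from the second lowest level per length of the 36 genes.

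Iars2, the mitochondrial isoleucine enzyme, and Vars2, the mitochondrial valine enzyme, were the members of their group that rose at both passages. Iars2 read 118, 108, 108 and 109.6 CPM at passage 4 without DOX, 138, 135, 151 and 138 with it, 108, 108, 106 and 114 at passage 7 without DOX and 133, 128, 124 and 130.3 with it. Every DOX library was above every library of its passage without DOX. The log2 fold changes were 0.34 ± 0.049 and 0.24 ± 0.049 (edgeR adjusted p = 7.5e-05 and 0.0014). Vars2 at passage 4 measured 71.7, 81.5, 88.9 and 85.5 CPM without and 97.5, 106, 107 and 106 CPM with DOX, and at passage 7 86.96, 81.7, 80.98 and 80.04 CPM without and 94.3, 97.6, 89.5 and 93.1 CPM with it. Its groups did not overlap either, though the passage 7 call did not hold when any of 6 libraries was left out (edgeR adjusted p of 0.074 to 0.099 without P7 no-DOX replicate 2, 3 or 4 or P7 DOX replicate 1, 2 or 4). Cars2, for cysteine, stood at 21.5, 21.5, 25.1 and 22.7 CPM in the passage 4 libraries without DOX and at 23.8, 28.8, 29.8 and 31.01 CPM in those with it, against 24.7, 18.96, 18.6 and 24.1 CPM and 20.6, 24.3, 26.9 and 25.8 CPM at passage 7. The Cars2 groups overlapped at both passages, and it passed on the average alone, at 0.25 ± 0.079 (edgeR adjusted p = 0.021). At passage 4 Cars2 passed with a replicate block (adjusted p = 0.018) and not without it (adjusted p = 0.055).

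Overlap with other genes limits several of these values, since the sources used here do not give the strand setting of the counting. Of the 31-base words in Iars2 transcripts, 23.6% also occur in other genes, nearly all in Rab3gap2 on the opposite strand. Rab3gap2 changed by -0.13 ± 0.041 on average (edgeR adjusted p = 0.023), the opposite direction. Cars2 overlaps Naxd on the opposite strand, which changed by 0.08 ± 0.053 (adjusted p = 0.25). Vars2 shares 7.28% of its words, all with Gm20483 on the opposite strand, which stood at 9.12 to 16.6 CPM and rose by 0.27 ± 0.086 (adjusted p = 0.020). Nars2 shares 4.13%, mostly with C230038L03Rik on the opposite strand, which stood at 0.886 to 3.61 CPM and rose by 0.86 ± 0.18 (adjusted p = 9.0e-04). Fars2 shares 9.83%, mostly with Nrn1, which reached at most 0.172 CPM. Farsb overlaps Sgpp2, which rose by 0.22 ± 0.062 (adjusted p = 0.010), and Mars1 overlaps Ddit3, which rose by 1.59 ± 0.068 (adjusted p = 6.2e-12). Iars shares 14.7% of its 31-base words, mostly with the pseudogene Gm4849, which reached at most 0.643 CPM. Aars shares 14.4%, mostly with Exosc6 on the same strand, which is listed at 0 in all libraries. Hars and Hars2 lie head to head and overlap by 198 bases.

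**Figure D2:**
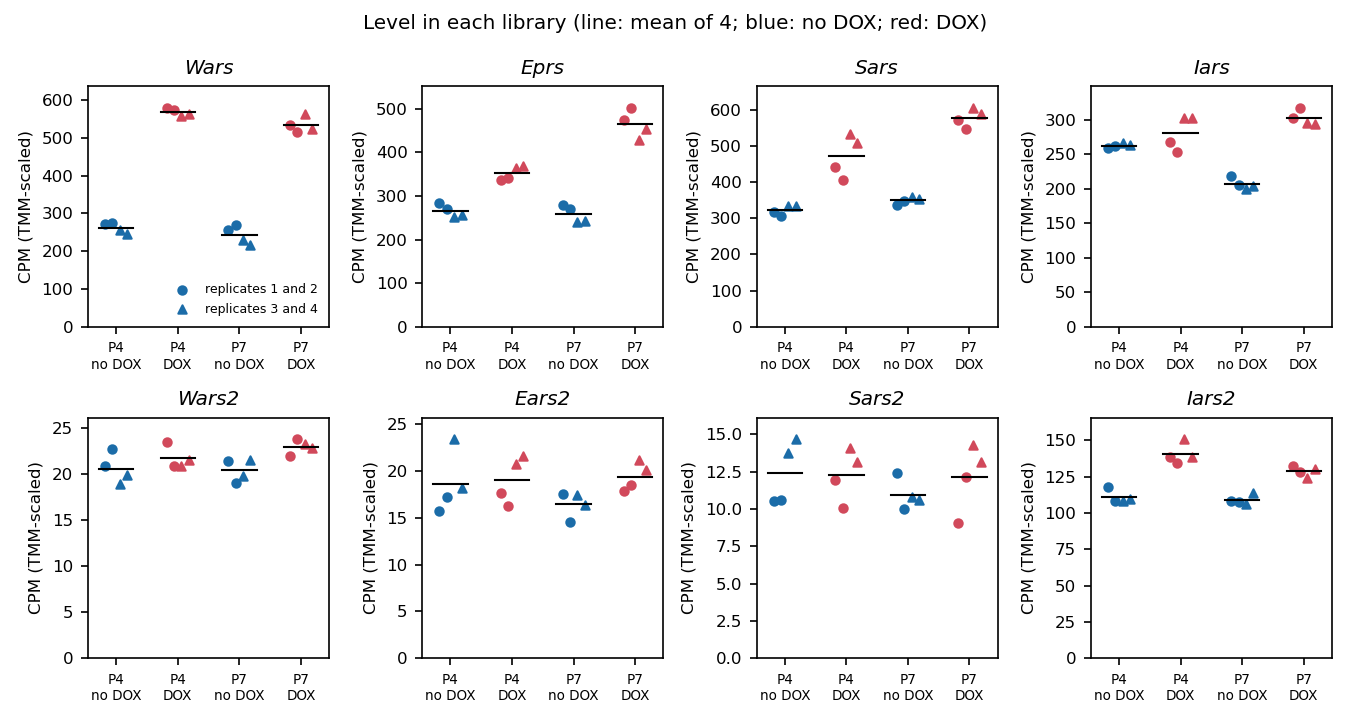
Level in each of the 16 libraries, in CPM after TMM scaling on axes from 0, of 4 cytosolic genes (top) and the mitochondrial gene for the same amino acid (bottom; Ears2 stands for the 2 partners of Eprs). Circles are replicates 1 and 2, triangles replicates 3 and 4, and lines the mean of 4. Wars rises from 216 to 274 CPM without DOX to 515 to 579 CPM with it, while Wars2 stays between 18.9 and 23.7 CPM.

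In the promoter windows of the synthetase genes, whether they rose or not, an ATF4 response element was looked for by its letters, TGATGNAA, on either strand. The RefSeq promoter table (GRCm38.p6, from 250 bases before to 50 after the start) held 27 of the 36 genes, 13 cytosolic and 14 mitochondrial. It has no entry for Cars, Hars, Lars, Nars, Rars, Vars, Wars, Hars2 and Pars2. A match stood in 5 of the 13 cytosolic windows and in none of the 14 mitochondrial windows, against 4.51% of the 27025 genes in the table and 2.69% of the 10653 tested ones. The 5 were Aars, Gars, Iars, Tars and Yars, and all 5 rose. Of the 8 cytosolic genes without a match, 4 rose, Eprs and Sars among them. Positions are counted from the start, whose first base is 1. The matches began at -112 and 10 in Aars, -30 in Gars, 8 in Iars, -15 in Tars and 4 in Yars. A match is a description of letters, and no match says nothing of the factor. The windows below run from 120 bases before the start to 20 after it, 5′ to 3′ on the gene's strand, with the matches in capitals. The 5 windows with a match are shown, and those of Eprs and Sars, which rose most among the genes in the table, for comparison. For Gars and Sars the first 35 bases from this start were not found in the gene's GENCODE transcripts. The Sars window lies wholly outside the span of the gene as counted.
Aars (chr8:111033722-111033861, plus strand): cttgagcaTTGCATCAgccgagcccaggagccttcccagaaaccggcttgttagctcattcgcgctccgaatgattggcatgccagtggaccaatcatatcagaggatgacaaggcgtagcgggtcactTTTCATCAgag
Gars (chr6:55037881-55038020, plus strand): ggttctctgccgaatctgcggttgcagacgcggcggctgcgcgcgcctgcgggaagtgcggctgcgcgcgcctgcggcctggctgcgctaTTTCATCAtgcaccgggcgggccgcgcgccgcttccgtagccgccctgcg
Iars (chr13:49682010-49682149, plus strand): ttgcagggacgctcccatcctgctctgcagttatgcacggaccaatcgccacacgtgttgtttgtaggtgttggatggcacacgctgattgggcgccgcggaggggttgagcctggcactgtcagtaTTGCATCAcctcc
Tars (chr15:11399639-11399778, minus strand): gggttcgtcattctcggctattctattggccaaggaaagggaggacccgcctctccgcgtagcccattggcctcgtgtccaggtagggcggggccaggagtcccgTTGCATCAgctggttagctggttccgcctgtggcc
Yars (chr4:129189783-129189922, plus strand): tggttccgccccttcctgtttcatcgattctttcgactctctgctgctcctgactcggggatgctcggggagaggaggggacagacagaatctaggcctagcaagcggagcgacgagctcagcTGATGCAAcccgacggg
Eprs (chr1:185362924-185363063, plus strand): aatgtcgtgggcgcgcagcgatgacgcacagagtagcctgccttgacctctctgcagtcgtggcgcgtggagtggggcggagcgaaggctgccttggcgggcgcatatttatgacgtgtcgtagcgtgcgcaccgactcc
Sars (chr3:108445240-108445379, minus strand): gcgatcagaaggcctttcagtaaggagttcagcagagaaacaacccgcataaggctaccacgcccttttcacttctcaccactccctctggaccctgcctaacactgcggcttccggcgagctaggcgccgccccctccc

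The response of the cytosolic genes was larger at passage 7. At passage 4, 8 of 20 rose (Aars, Cars, Eprs, Lars, Nars, Rars, Sars and Wars), with a median log2 fold change of 0.15, and at passage 7, 15 of 20 rose, with a median of 0.47. Of all genes tested, 8.45% were higher and 9.10% lower at passage 4, and 11.1% were higher and 11.6% lower at passage 7. Among the mitochondrial genes 2 of 16 rose at passage 4 and 3 at passage 7, with medians of 0.10 and 0.14. All members called at passage 4 were also called at passage 7. The passage 4 call of Lars did not hold without P4 no-DOX replicate 1 or 3 or P4 DOX replicate 3 or 4 (edgeR adjusted p of 0.053 to 0.086). With a replicate block, Farsb and Tars were also called higher at passage 4 (adjusted p = 0.041 and 0.017), and Farsa, Hars and Hars2 lower (adjusted p = 0.035, 0.034 and 0.036).

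Counted by libraries, all 4 with DOX exceeded all 4 without it at passage 4 in 8 cytosolic and 3 mitochondrial genes, a pattern found in 10.3% of all genes tested. At passage 7 this held for 15 cytosolic and 6 mitochondrial genes, against 12.4%. It held at both passages for 8 cytosolic genes (Aars, Cars, Eprs, Farsb, Nars, Rars, Sars and Wars) and for Iars2 and Vars2, against 5.32%. In 1 cytosolic gene at each passage, Hars at passage 4 and Farsa at passage 7, all 4 libraries with DOX were the lower ones. The share of all genes with this lower pattern was not counted.

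The difference between the passages was itself tested. It passed for 4 genes, all cytosolic and all with the larger response at passage 7: Iars, Gars, Eprs and Lars. Over all genes, 0.516% had a larger response at passage 7 and 0.679% a smaller one. Iars read 259, 262, 266 and 264 CPM at passage 4 without DOX, 268, 254, 302 and 303 with it, 219, 206, 199.6 and 204 at passage 7 without DOX and 302, 318, 296 and 295 with it. At passage 4 its groups overlapped, and at passage 7 they were far apart, with log2 fold changes of 0.10 ± 0.056 and 0.55 ± 0.056 and a difference of 0.45 ± 0.079 (edgeR adjusted p = 0.0070). Part of this lay in the libraries without DOX, which were lower at passage 7 in every replicate.

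Gars, whose product charges glycine tRNA in both cytosol and mitochondria, at passage 4 measured 276, 292, 298 and 296 CPM without and 294, 280.5, 359 and 336 CPM with DOX, and at passage 7 262, 272, 299.6 and 295 CPM without and 421, 407, 463 and 443 CPM with it. Here the libraries without DOX were alike at both passages and those with DOX differed, for a difference of 0.49 ± 0.100 (edgeR adjusted p = 0.017). Eprs differed by 0.44 ± 0.088 (edgeR adjusted p = 0.016). Lars, for leucine, stood at 207, 213, 209 and 224 CPM in the passage 4 libraries without DOX and at 236, 214, 269.8 and 270.5 CPM in those with it, against 184, 178, 174 and 169 CPM and 273, 274, 269.6 and 271 CPM at passage 7. As in Iars, its level without DOX was lower at passage 7, and the DOX libraries of passage 4 split by replicate. The difference for Lars was 0.41 ± 0.089 (edgeR adjusted p = 0.025), and it did not pass without P4 no-DOX replicate 4, P4 DOX replicate 1, P7 no-DOX replicate 3 or 4, or P7 DOX replicate 3 or 4 (adjusted p of 0.051 to 0.070). Lars2, the mitochondrial leucine enzyme, read 109, 129.9, 96.2 and 91.3 CPM at passage 4 without DOX, 133, 143, 116 and 102 with it, 95.3, 93.3, 127 and 96.97 at passage 7 without DOX and 102, 110.0, 116 and 102 with it. The Lars2 values scattered within every group and overlapped at both passages. With a replicate block the difference passed for 8 genes, the other 4 being Aars, Nars, Rars and Yars (adjusted p = 0.021, 0.0051, 0.010 and 0.0073). The shares of all genes above are from the fit without the block, and none is given for the fit with it. No mitochondrial gene passed in either fit. All 20 cytosolic estimates were larger at passage 7, and 9 of 16 mitochondrial ones. Wars differed by 0.02 ± 0.086.

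**Figure D3:**
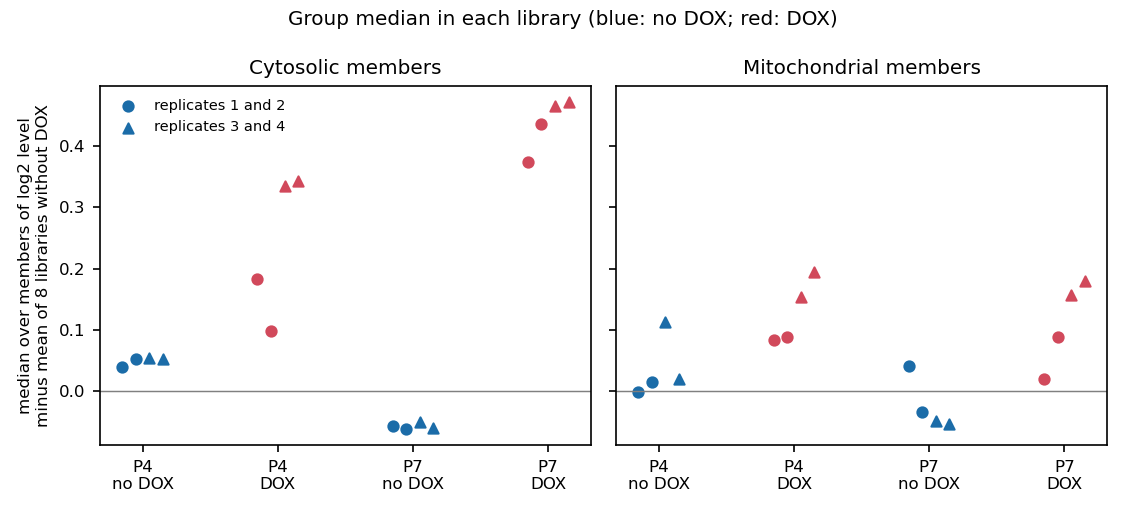
Median over the 20 cytosolic (left) and 16 mitochondrial (right) genes, in each library, of the log2 level minus the gene's mean over the 8 libraries without DOX. The cytosolic median is -0.06 to 0.05 in libraries without DOX, 0.10 to 0.34 with DOX at passage 4 and 0.37 to 0.47 at passage 7, and the mitochondrial medians with and without DOX overlap at both passages.

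The libraries of passage 4 with DOX were split by replicate. The cytosolic median was 0.18 and 0.10 in replicates 1 and 2 and 0.34 in both replicates 3 and 4, on the log2 scale. Fitted alone, replicates 1 and 2 gave 8 cytosolic genes higher and 2 lower (Dars and Kars) at passage 4, and replicates 3 and 4 gave 13 higher and 1 lower (Farsa). Both pairs gave 15 higher at passage 7. Shares over all genes are not given for these 2 fits, so whether the differing counts are particular to the synthetase genes was not tested. Among all libraries, the share of counts from the 20 cytosolic genes was 0.397% to 0.437% without DOX and 0.473% to 0.590% with it. That of the 16 mitochondrial genes was 0.0588% to 0.0619% without DOX and 0.0669% to 0.0691% with it at passage 4, and 0.0568% to 0.0591% and 0.0612% to 0.0644% at passage 7, so that the libraries with DOX lay above those without it at each passage. Atf4 RNA was at 293 to 344 CPM without DOX and 366 to 513 CPM with it at passage 4, and at 338 to 417 CPM and 555 to 682 CPM at passage 7.

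By enzyme class and complex the cytosolic counts for DOX averaged over passages were as follows, against 15.7% of all genes tested higher and 16.6% lower. Of the 8 cytosolic genes whose products join the multisynthetase complex, Eprs, Iars, Lars, Mars1 and Rars rose and Dars, Kars and Qars did not pass. Outside the complex 10 of 12 rose, with Farsa and Hars not passed. Among class I enzymes 8 of 9 rose, all but Qars, and among class II enzymes 6 of 10, with median log2 fold changes of 0.32 and 0.27. Eprs holds a class I and a class II enzyme in 1 protein. The difference between these groups was not tested. In the phenylalanine enzyme the subunit genes parted: Farsb rose by 0.26 ± 0.043 and Farsa changed by -0.13 ± 0.056 (edgeR adjusted p = 1.1e-04 and 0.076). With a replicate block Farsa and Hars were called lower (adjusted p = 0.037 and 0.026) and Fars2 higher (adjusted p = 0.046).

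The remaining cytosolic members that rose had the following values. Averaged log2 fold changes were 0.41 ± 0.045 for Cars, 0.31 ± 0.052 for the tyrosine enzyme gene Yars, 0.28 ± 0.062 for the threonine enzyme gene Tars, 0.21 ± 0.044 for Vars and 0.11 ± 0.035 for the methionine enzyme gene Mars1. The mitochondrial genes Fars2, Mars2, Tars2, Yars2 and Hars2 had averaged log2 fold changes of -0.08 to 0.15, and none passed.

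For each amino acid the cytosolic and the mitochondrial gene were compared directly, as the log2 ratio of their CPM in the same library. DOX labels were permuted within passage in an exact 2-sided test of 4900 arrangements, with p-values adjusted over the 17 pairs. The smallest p it can give is 0.000408. The ratio shifted towards the cytosolic gene in 9 pairs and towards the mitochondrial gene in 1, and 7 did not pass. The shift was 1.01 for Wars over Wars2, 0.57 for Sars over Sars2, 0.47 for Aars over Aars2 and 0.48 for Rars over Rars2 (exact permutation, adjusted p = 0.0023, 0.0023, 0.0023 and 0.0035). Eprs shifted by 0.65 against Pars2 and 0.49 against Ears2. These 6 pairs, with Tars over Tars2 at 0.19, also passed with a replicate block and without any 1 library.

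The remaining shifts towards the cytosolic gene were small. Yars over Yars2 shifted by 0.22 (exact permutation, adjusted p = 0.039) and Nars over Nars2 by 0.12 (adjusted p = 0.025), and neither passed with a replicate block (adjusted p = 0.12 for both). Without 1 library, Nars over Nars2 did not pass for P4 no-DOX replicate 1 or 2 or P7 DOX replicate 3, and Yars over Yars2 for 11 of the 16 libraries. Farsa over Fars2 shifted by -0.28 (exact permutation, adjusted p = 0.0035). That shift also passed with a replicate block (adjusted p = 0.019) and without any 1 library (adjusted p of 0.0028 to 0.0079). Iars over Iars2 moved by -0.24 at passage 4, with all DOX libraries below, and by 0.30 at passage 7, with all of them above, for an average of 0.03. At passage 4 the groups all but touched, with a highest log2 ratio of 1.1308 with DOX and a lowest of 1.1310 without it. The shift within each passage was not tested.

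**Figure D4:**
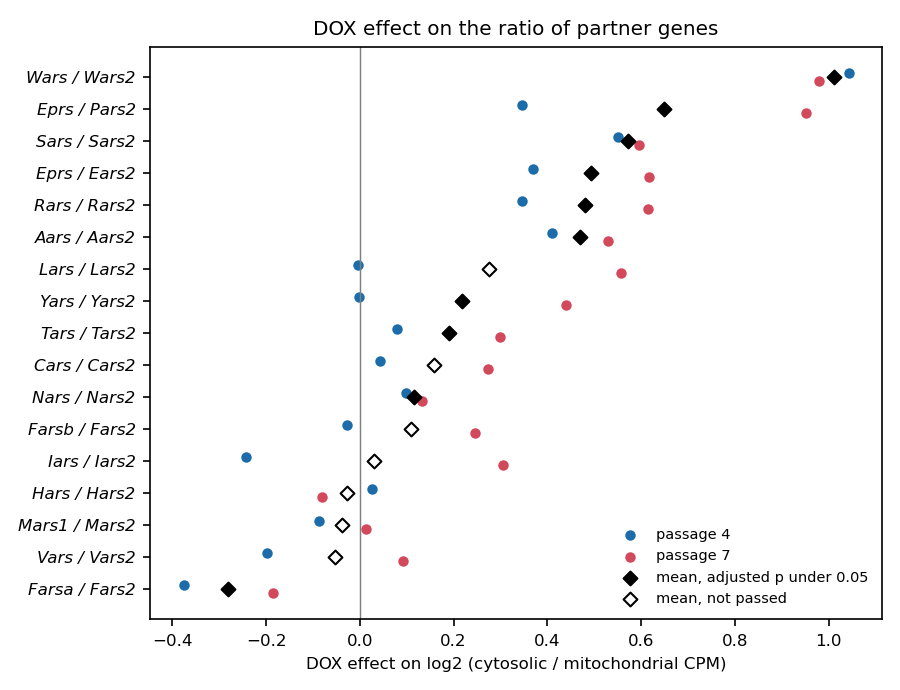
Effect of DOX on the log2 ratio of cytosolic to mitochondrial CPM for 17 partner pairs, at passage 4, at passage 7 and on average (diamonds, filled where the adjusted exact permutation p was under 0.05). Of the 17 averages 13 are above 0, from 0.03 for Iars over Iars2 to 1.01 for Wars over Wars2.

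Passage itself was compared without and with DOX. Without DOX, 7 members were lower at passage 7 and none was higher: Farsa, Hars, Iars, Kars, Lars, Qars and the mitochondrial Hars2. Of all genes tested 14.3% were higher and 11.3% lower. With a replicate block 9 were lower, with Farsb and Nars added (adjusted p = 0.035 and 0.016). Qars, the glutamine enzyme, read 157, 157, 175 and 166 CPM at passage 4 without DOX, 159, 153, 171 and 159 with it, 125, 135, 140.2 and 139.8 at passage 7 without DOX and 139, 132, 139.6 and 139 with it. All its libraries of passage 7 were below all those of passage 4. Qars changed by -0.28 ± 0.053 without DOX and -0.22 ± 0.052 with it (edgeR adjusted p = 7.6e-04 and 0.0028). Hars2, for histidine, at passage 4 measured 34.5, 36.03, 40.4 and 38.9 CPM without and 31.9, 31.6, 32.7 and 36.1 CPM with DOX, and at passage 7 30.6, 30.2, 29.8 and 31.3 CPM without and 27.4, 31.7, 31.6 and 33.4 CPM with it. It was lower at passage 7 in every library without DOX, by -0.30 ± 0.073 (edgeR adjusted p = 0.0057). Yars2 stood at 24.02, 20.3, 21.1 and 22.2 CPM in the passage 4 libraries without DOX and at 24.5, 20.1, 25.7 and 25.5 CPM in those with it, against 25.7, 27.5, 25.2 and 23.3 CPM and 25.2, 24.6, 26.9 and 28.1 CPM at passage 7, and with a replicate block it passed as higher without DOX (adjusted p = 0.042, against 0.081). The call of Farsa did not hold without P4 no-DOX replicate 3 or 4 or P7 no-DOX replicate 1, 3 or 4 (adjusted p of 0.054 to 0.13).

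With DOX, 9 members were higher at passage 7 (Aars, Eprs, Gars, Nars, Rars, Sars, Tars, Yars and Nars2) and 3 were lower (Hars, Qars and Fars2). Of all genes tested 18.3% were higher and 15.8% lower. With a replicate block 12 were higher, with Cars, Lars and Mars1 added (adjusted p = 0.026, 0.0499 and 0.029), and 6 lower, with Kars, Iars2 and Vars2 added (adjusted p = 0.041, 0.034 and 0.029). The call of Fars2 was lost without any 1 of 13 libraries (edgeR adjusted p of 0.052 to 0.13), all but P4 DOX replicate 2, P7 no-DOX replicate 2 and P7 DOX replicate 3. That of Hars was lost without P4 DOX replicate 3 or 4 or P7 DOX replicate 1 or 2 (adjusted p of 0.058 to 0.082), so that Qars alone was lower there. Nars did not pass without P4 DOX replicate 1 or 2 or P7 DOX replicate 3 or 4 (adjusted p of 0.072 to 0.092), nor Nars2 without P4 DOX replicate 1 or 2 or P7 DOX replicate 4 (adjusted p of 0.062 to 0.085). These comparisons share libraries with those of DOX.

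Levels per length set the groups apart before any treatment. As CPM per kilobase of exon in the 8 libraries without DOX, the cytosolic members had a median of 38.9 and the mitochondrial ones of 4.31. Nars was highest at 98.6 ± 5.69 (SD, n = 8), followed by Gars at 91.8 ± 4.58, Wars at 73.1 ± 6.03, Rars at 66.9 ± 2.80 and Sars at 65.4 ± 3.52. Neighbours in this order, such as Nars and Gars or Rars and Sars, lay within their spread. The first 17 places were cytosolic, and Vars2 came 18th at 15.05 ± 0.971. The cytosolic genes below it were Eprs at 14.5 ± 0.921, Yars at 14.2 ± 0.651 and Farsa at 10.2 ± 1.34. Mars2 was lowest, at 1.04 ± 0.211. The exon length counts every annotated exon of a gene, which lowers the value of genes with long unused exons.

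Among genes that act around the synthetases, lists of related function were counted in the same fit. They are read against the 15.7% of all tested genes that were higher and the 16.6% that were lower with DOX. Of the 3 scaffold proteins of the multisynthetase complex, Aimp1 rose, by 0.19 ± 0.046 (edgeR adjusted p = 0.0034), and Aimp2 and Eef1e1 did not pass. Of 8 genes for translation elongation factors and their subunits 5 rose: Eef1b2 by 0.37, Eef1a1 by 0.29, Eef1g by 0.24, Tsfm by 0.17 and Eef1d by 0.13. Tufm, the mitochondrial elongation factor that carries tRNA, was at -0.04 and did not pass. Of 16 tRNA maturation and export genes 5 rose and 1 fell. Xpot, the nuclear exporter of tRNA, rose by 0.86 ± 0.045 (edgeR adjusted p = 6.9e-11), more at passage 7 than at passage 4 by 0.53 ± 0.090 (adjusted p = 0.0054). Nsun2 and Nsun3, methyltransferases of tRNA, rose by 0.30 and 0.27, and Trmt10c and Rtcb by 0.22 and 0.11, while Tsen34, of the splicing endonuclease, was lower at -0.17.

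The next lists had 1 called gene of 4 each, little more than the share over all genes. In the mitochondrial transamidation and formylation list, which supplies glutamine tRNA and the initiator tRNA, 1 of 4 genes rose, Gatc at 0.27 ± 0.059 (edgeR adjusted p = 0.0016). Of 4 tested genes of editing and synthetase-like proteins, Dtd1, which removes D-amino acids from tRNA, changed by -0.52 ± 0.080 on the log2 scale (adjusted p = 5.0e-05), the single gene of the list that fell, and none rose. In the selenocysteine route 1 of 4 rose, Pstk at 0.34. Of 4 genes listed around the sensing of uncharged tRNA, only Atf4, which acts downstream of GCN2, rose, by 0.57 ± 0.075 (adjusted p = 1.6e-05). Eif2ak4, which encodes GCN2, was at -0.10 ± 0.070 and did not pass (adjusted p = 0.29). All 13 ATF4 targets that are no synthetases rose on average over passages, with a median of 0.86, among them Trib3 at 1.81, Ddit3 at 1.59 and Asns, asparagine synthetase, at 0.80. Their median lay above the 0.31 of the cytosolic synthetases, of which Wars alone exceeded it. Chac1 passed at neither passage alone (edgeR adjusted p = 0.43 and 0.059), and Sesn2 did not pass at passage 4 (adjusted p = 0.11). The list was chosen with earlier results of these data known, so the count is a description only.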

How the data were processed

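RNA of 16 libraries in 4 groups of 4 was measured. Poly(A) RNA was made into directional libraries, read as 2 x 75 bp and aligned to GRCm38.p6 by STAR 2.6.0c, per the labels' protocols. The authors deposited 2 tables, raw gene counts and TPM values. The counting tool, annotation release and strand setting are not given in the sources used here. All results rest on the counts. In the TPM table, 4 of 16 columns correlated best with the count column of the same name and 12 with another, over 12205 genes (lowest best r 0.995, highest second r 0.900), and Pkd2 followed the DOX labels of the count headers, so TPM values were not used. Symbols, positions and exon lengths came from the GENCODE annotation of GRCm38, which held all 55536 identifiers.

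The counts, 9937504 to 17188295 per library, were filtered with filterByExpr, scaled by TMM and fitted in edgeR 4.0.16 (R 4.3.3) with its robust quasi-likelihood test, which had a mean for each group and 12 residual degrees of freedom. P-values were adjusted over 15316 genes, with a threshold of 0.05. Log2 ratios of partner genes used a prior count of 2. Replicates differed by more than sampling noise (chi-square per degree of freedom 1.87 to 19.0). Same-numbered libraries of different groups deviated together (correlations 0.18 to 0.37), so libraries of different groups were not unrelated. The main fit had no replicate block. Values from a replicate block are given where the block changed a call. Shares over all genes are those of the main fit, and none is given for the block. The correlations were as high between numbers 1 and 2 and between 3 and 4 (0.18 to 0.39), and -0.34 to -0.18 across these pairs. The link is thus by these pairs of numbers, and 8 of the 16 libraries correlated best with their own number. Alternatives were other scalings, DESeq2 1.42.0, no filter, the block, each pair of replicates alone, other prior counts and leaving out each library. The fit and the permutation test were tested on simulated data.

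The members and lists were chosen with earlier results of these data known. Values by library are given for 23 members by a rule: the 6 cytosolic and 4 mitochondrial genes with the smallest adjusted p for DOX, those past the threshold for the difference between passages, the first 2 of each group for passage without DOX, and their mitochondrial partners. Of the related lists, at most 4 genes by adjusted p and those at the ends of the range are named, and a few further genes were named after their values were seen.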

Additional observations from a re-analysis of the deposited data

Results flagged for a closer look

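In 5 of the 92 groups of 4 libraries tested, 1 library lay far from the other 3; chance flags about 1 in 20 groups. These were Iars2 at 118 CPM in a passage 4 library without DOX, Vars2 at 97.5 CPM in a passage 4 library with DOX, Qars at 132 CPM and Rars2 at 23.8 CPM, each the lowest at passage 7 with DOX, and Lars2 at 127 CPM at passage 7 without DOX.

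The DOX response differed between the passages, by edgeR's test of the difference, in 4 genes. It was larger at passage 7 by 0.49 for Gars, 0.45 for Iars, 0.44 for Eprs and 0.41 for Lars on the log2 scale.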

How the results depend on the processing

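Other scalings moved the median of all genes by at most 0.02 and turned no direction of a called value. With library totals 1 cytosolic gene was lower for the averaged DOX response. By DESeq2 5 members were lower at passage 7 with DOX, and with no filter 1. With the replicate block, 2 cytosolic and 1 mitochondrial gene were lower at passage 4, and 2 cytosolic genes were lower on average. The passage difference passed for 8 members, and passage gave 1 member higher without DOX and 6 lower with it. Of the partner pairs, 7 passed with a shift towards the cytosolic gene, against 9 without the block. The shift of Farsa over Fars2 towards the mitochondrial gene passed in both.

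Replicates 1 and 2 alone gave 2 cytosolic genes lower at passage 4 and medians of 0.081 for cytosolic and 0.042 for mitochondrial genes there, 0.033 for mitochondrial genes at passage 7, 1 cytosolic gene lower on average, 9 passage differences, 1 member higher at passage 7 without DOX and 14 with it. Replicates 3 and 4 alone gave, at passage 4, 13 cytosolic genes higher, 1 lower, a median of 0.24 and 4 mitochondrial genes higher; at passage 7, 6 mitochondrial genes higher with a median of 0.20; on average, 1 cytosolic gene lower and 7 mitochondrial genes higher; and for passage, 1 higher and 12 lower without DOX and 5 lower with it. The cause of these changes was not tested, and no share over all genes is given for these smaller fits.

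Leaving out 1 library gave 7 to 9 cytosolic genes higher and 0 to 1 lower at passage 4, with a median of 0.11 to 0.19, and 2 to 3 mitochondrial genes with a median of 0.09 to 0.13. At passage 7 it gave 15 cytosolic genes each time, median 0.45 to 0.49, and 2 to 3 mitochondrial ones, median 0.09 to 0.18. On average it gave 15 cytosolic genes higher and 0 to 1 lower, median 0.29 to 0.34, and 4 to 5 mitochondrial genes, median 0.10 to 0.14. The passage difference passed for 3 to 6 members, and 7 to 11 pairs passed with a shift towards the cytosolic gene. Passage gave 0 to 1 higher and 6 to 8 lower without DOX, and 7 to 12 higher and 1 to 4 lower with it.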
